A study of Mus musculus with 6 samples.

Results

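The genes described here are 10 textbook targets of the transcription factor p53, Cdkn1a, Mdm2, Ccng1, Sesn1, Sesn2, Zmat3, Phlda3, Plk2, Perp and Btg2. They were taken by symbol from the authors' deposited table of 29209 entries, and all 10 are listed there. The table compares subcutaneous tumours in NCr nude mice, a strain without a thymus and so with few mature T cells. Every tumour grew from injected spleen cells of diseased mir-155LSLtTA mice, which overexpress the microRNA miR-155 under a transactivator that doxycycline (DOX) switches off. In the DOX group (3 samples) DOX was given for 16 hours before harvest in chow holding 2.3 mg per kg, and in the no DOX group (3 samples) it was not. The labels give no age and do not state that each sample is a separate animal, so the p-values cover the variation among these 6 samples alone, and that variation may be technical. The design has no DOX-treated tumour lacking the transgene, and effects of the drug and of miR-155 loss cannot be told apart.

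p53 is held low in unstressed cells because MDM2, itself the product of a p53 target gene, marks it for destruction, while MDM4 binds it and blocks its activity. When DNA damage kinases or nucleolar and ribosomal proteins relieve this block, p53 switches on genes that halt the cell cycle, restrain growth signalling, repair DNA or promote apoptosis. In lymphoid tumours the pathway is a common barrier to growth driven by MYC.

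The table analysed here gives 1 ratio per gene with its p-values, and no value per sample and no abundance, so depth is unknown. Its order of division is not stated. Ratios were read as DOX over no DOX, and every direction below turns if the order was the reverse. A gene was called where the authors' adjusted p was under 0.05. Of 18543 tested entries, 11.3% were called, 5.72% as higher and 5.61% as lower. The median log2 fold over entries with a finite ratio was 0.17, and subtracting it changed the sign of no member. As a guide to precision, an implied standard error was computed, the one with which a normal test on the log2 fold would give the listed unadjusted p, and approximate 95% intervals rest on it. In such mixed tissue, fewer cells of a type and less RNA per cell cannot be told apart.

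Of the 9 p53 targets that were tested, 1 was called, Btg2, as higher with DOX, a share near the 11.3% of all tested entries. None of the 9 was called as lower in the authors' comparison (DESeq, per the submitters' processing notes), and none below a ratio of 1 had an unadjusted p under 0.05. Across all tested entries, 22.4% had an unadjusted p under 0.05, 11.9% on the higher side and 10.4% on the lower side, and among the members Btg2 alone did. Ratios lay above 1 for 4 members and below 1 for 5, and the median log2 fold was -0.97. That median rests on imprecise values. Of the 6 members with a ratio at least 2-fold from 1, 5 were not called, and 43% of all finite ratios were as far from 1.

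**Figure D1:**
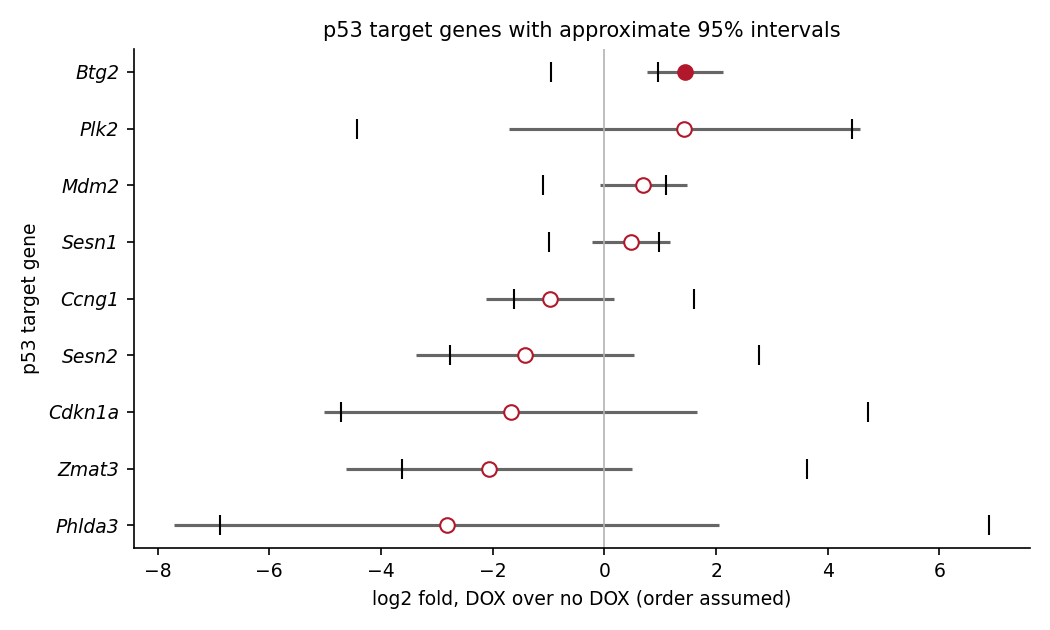
Log2 folds (x axis, DOX over no DOX as read here) of the 9 tested p53 target genes (y axis), with bars for approximate 95% intervals, a filled point for a call, and black ticks for the log2 fold that a gene of the same implied error would need for a call. Btg2 at 1.44 lies beyond its tick, and the widest interval, that of Phlda3, runs from -7.70 to 2.06.

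Among the members that act on the cell cycle, Btg2 encodes an antiproliferative protein that recruits the CCR4-NOT deadenylase to mRNAs. It is also an immediate early gene, induced by growth and stress signals apart from p53. Its ratio in the authors' deposited table was 2.71, a log2 fold of 1.44 with an implied standard error of 0.35 (approximate 95% interval 0.76 to 2.12, unadjusted p = 3.07e-05, adjusted p = 0.00108). Only 2.83% of tested entries had a smaller p. Btg2 was also the most precisely measured member, since 92.5% of the 13930 entries with an implied error had a larger one.

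Cdkn1a, which encodes the cyclin-dependent kinase inhibitor p21 and is the best known effector of p53 arrest, had a ratio of 0.313 in the authors' deposited table, 3.20-fold lower. It was not called by the authors' DESeq comparison (log2 fold -1.68, interval -5.02 to 1.67, adjusted p = 0.701). With an implied error of 1.71, a gene like it would need a log2 fold of 4.72 for a call. That figure takes the error as fixed. Whether a large change in p21 mRNA could have been detected was not tested, since abundance is unknown. Plk2, the gene of a polo-like kinase of centriole duplication, was imprecise as well. Its ratio of 2.70 in the authors' deposited table nearly equals that of Btg2, yet its implied error was 1.60 and its adjusted p 0.751 (interval -1.71 to 4.57). Ccng1 encodes cyclin G1, which brings a phosphatase to MDM2, and its log2 fold in the authors' deposited table was -0.97 (interval -2.11 to 0.17, adjusted p = 0.339).

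Both members of the feedback group were uncalled. Mdm2, the ubiquitin ligase gene that closes the negative feedback loop, had a ratio of 1.62 in the authors' deposited table (log2 fold 0.70, interval -0.08 to 1.48, adjusted p = 0.302). This is one of the tighter values, with an implied error of 0.40. At that error a log2 fold of 1.10 would have been needed for a call. Zmat3, a zinc finger gene whose product binds RNA, had a ratio of 0.239 in the authors' deposited table, 4.18-fold lower (log2 fold -2.06, interval -4.63 to 0.50, adjusted p = 0.382).

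The sestrins restrain the growth kinase complex mTORC1 when amino acids are short, and their ratios lay on either side of 1. In the authors' deposited table the log2 fold of Sesn1 was 0.47 (interval -0.22 to 1.17, adjusted p = 0.504), and its implied error of 0.36 is close to that of Btg2. Rises of Sesn1 beyond a log2 fold of 1.17 lie outside this approximate interval. Sesn2, which the amino acid stress factor ATF4 also controls, had one of -1.42 in the authors' deposited table (interval -3.38 to 0.53, adjusted p = 0.456). The intervals of Sesn1 and Sesn2 overlap, and their difference was not tested.

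Phlda3 and Perp complete the set. Phlda3 encodes a small protein that competes with AKT for membrane lipids. It had the lowest ratio of the members in the authors' deposited table, 0.142 or 7.05-fold lower, with the largest implied error, 2.49 (adjusted p = 0.618). Perp, a membrane protein gene of desmosomes and of p53-dependent death, is listed in the authors' deposited table with no ratio and no p.

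**Figure D2:**
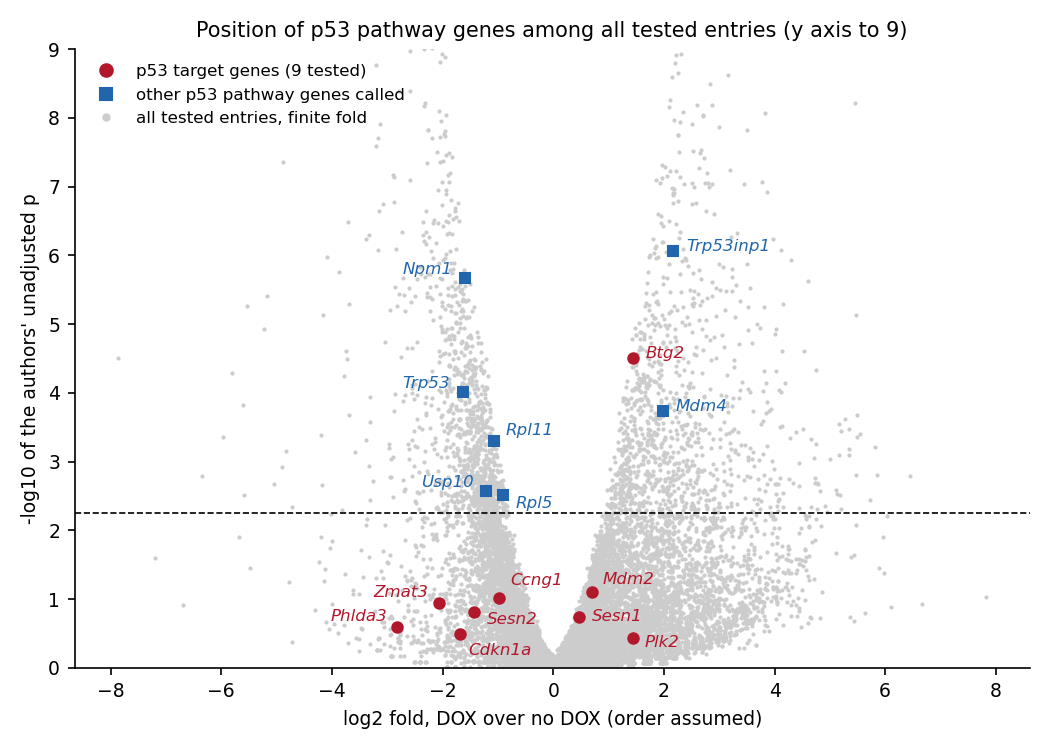
Each tested entry with a finite ratio by log2 fold (x axis) and -log10 of the authors' unadjusted p (y axis, shown up to 9), with the p53 targets as circles, the other called p53 pathway genes as squares, and a dashed line at the largest p that was called, 0.00566. Btg2 lies above the line and the other 8 tested members lie below it.

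Trp53 itself and several genes that govern p53 were called. Of 27 listed genes of the p53 family and its regulators, 26 were tested, of which 1 was called as higher and 5 as lower, against 5.72% and 5.61% of all tested entries. Trp53, the gene of p53 itself, fell 3.10-fold in the authors' deposited table (log2 fold -1.63, interval -2.46 to -0.81, adjusted p = 0.00256). Mdm4, whose product inhibits p53, rose, with a ratio of 3.97 in the authors' deposited table (log2 fold 1.99, interval 0.95 to 3.03, adjusted p = 0.00407). Each has a further entry under an older symbol that was not called, p53 with a log2 fold of -0.64 (adjusted p = 1) and Mdmx with -0.26 (adjusted p = 1) in the authors' deposited table. The direction of Mdm4 therefore differs between its entries, and the sources used here do not say how reads were split between them.

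The other falls were in genes whose products act on p53 or MDM2. Npm1, Rpl5 and Rpl11 encode a nucleolar protein and ribosomal proteins that bind MDM2, and in the authors' deposited table they fell by 1.59 (adjusted p = 0.000142), 0.91 (0.0322) and 1.08 (0.00855) on the log2 scale. Of 73 other tested genes with symbols of cytosolic ribosomal proteins, a set chosen after the values were seen, all 73 had a ratio below 1 in the authors' deposited table and 61 were called as lower by the authors' DESeq comparison, with a median log2 fold of -1.02. The falls of Rpl5 and Rpl11 are thus not particular to regulators of p53. Near-identical pseudogene copies of such genes exist, and their part in these values was not tested. The nucleolar protein genes Fbl, Ncl and Nolc1 were also called as lower in the authors' deposited table. They were picked after the values were seen, without a count of other nucleolar genes. A fall like that of Npm1 thus also occurs outside the listed regulators. Usp10, a deubiquitinase gene whose product stabilises p53, had -1.21 (0.0292) in the authors' deposited table. Cdkn2a, whose ARF product sequesters MDM2, was not called, at -2.29 (interval -6.12 to 1.55, adjusted p = 0.596) in the authors' deposited table. The damage kinase genes Atm, at 0.63, and Atr, at 0.50, were not called either in the authors' deposited table. The other listed damage response kinase genes had negative log2 folds that were not called in the authors' deposited table, at -1.81 for Chek1 (interval -3.36 to -0.26, adjusted p = 0.130), -0.64 for Chek2 and -0.66 for Prkdc. Trp73 is listed without a ratio.

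Besides the 10 members, 36 other reported p53 targets were examined, and all were tested. Only Trp53inp1 was called, as higher, and 0 were called as lower by the authors' DESeq comparison. Over all tested entries, 5.72% were called as higher and 5.61% as lower, 11.3% in either direction. At an unadjusted p under 0.05 the counts were 3 higher and 7 lower, where 11.9% and 10.4% of all tested entries passed in these directions. Trp53inp1, whose product promotes apoptosis and autophagy and which is also a reported miR-155 target, had a ratio of 4.50 in the authors' deposited table (log2 fold 2.17, interval 1.31 to 3.03, adjusted p = 6.8e-05). The median log2 fold of the 35 with a finite ratio was -0.06, between extremes of -2.36 for Rps27l and 2.66 for Rrm2b, neither of them called.

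Among these targets 12 act in apoptosis. Of them 7 with a finite ratio lay below 1 and 4 above, with a median log2 fold of -1.11. The BCL2 family genes that drive p53-dependent death gave -1.22 for Bax (adjusted p = 0.522), -1.47 for Bbc3 (0.784) and 0.93 for Pmaip1 (0.717) in the authors' deposited table. Their implied errors of 0.94, 1.78 and 0.97 are wide. Of 5 DNA repair targets, 4 lay above a ratio of 1 (median log2 fold 0.45), and of 6 metabolic targets 5 lay below it (median -0.78). None of these repair or metabolic targets was called. Below 1 also lay 4 of 6 cell cycle targets, 1 of 3 feedback targets, 3 of the 4 remaining targets and 44.1% of all finite ratios. Differences between these groups were not tested.

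**Figure D3:**
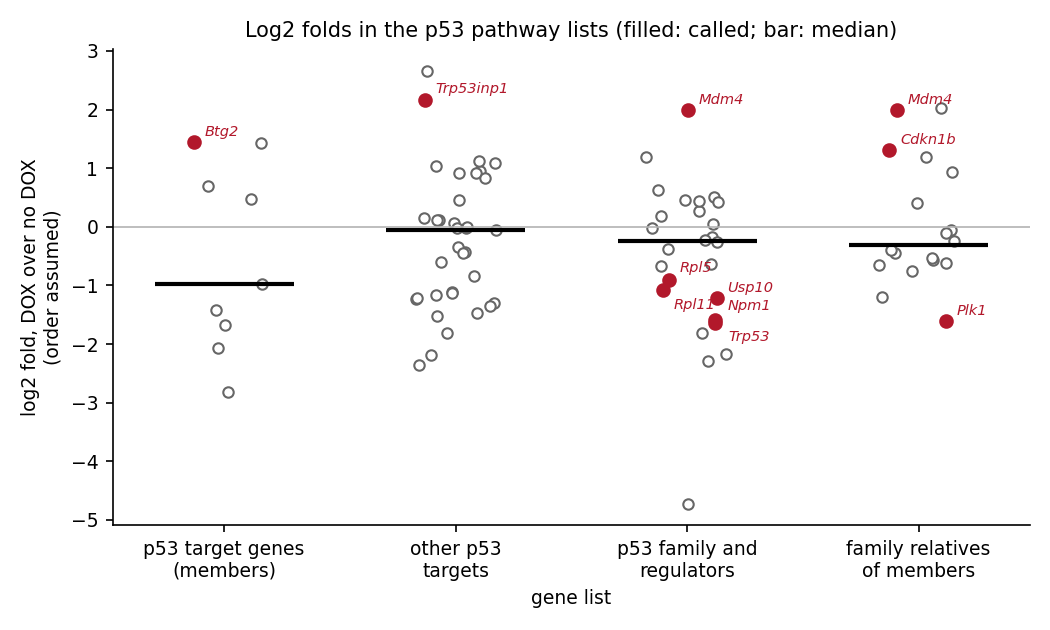
Log2 folds (y axis, DOX over no DOX as read here) of genes with a finite ratio in 4 lists (x axis), with filled named points for calls and a bar for the median. The medians are -0.97 for the p53 target genes, -0.06 for other targets, -0.24 for the p53 family and regulators and -0.31 for the family relatives of the members.

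Family relatives of the members show which calls sit in the same gene families. Of 20 listed relatives 18 were tested, and 2 were called as higher and 1 as lower, beside 5.72% and 5.61% of all tested entries. Cdkn1b, the gene of p27, a kinase inhibitor related to p21 and controlled by FOXO factors, rose by 1.31 on the log2 scale in the authors' deposited table (interval 0.52 to 2.09, adjusted p = 0.0153). Its interval overlaps that of Cdkn1a, and the difference was not tested. In the authors' deposited table Btg1, the closest relative of Btg2, was at 1.18 on the same scale (interval 0.02 to 2.35, adjusted p = 0.214), and Btg3, Tob1 and Tob2 had negative values with intervals across 0.

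In the polo-like kinase family, the mitotic kinase gene Plk1 fell (log2 fold -1.61, adjusted p = 0.000499), while Plk3 was at -0.06 (adjusted p = 1) in the authors' deposited table. Ccng2, the cyclin G relative that FOXO factors control, was at 0.94 (interval 0.20 to 1.69, adjusted p = 0.0921) in the authors' deposited table and did not pass. Sesn3, a FOXO target among the sestrins, was at -0.10 (interval -1.27 to 1.06, adjusted p = 1) in the authors' deposited table, and its further entry under BC003348 was at 0.77 (adjusted p = 0.429). Mdm4 is the relative of Mdm2 that rose, and it is the same gene already counted among the regulators called as higher. Its further entry Mdmx was not called. Plk3 is likewise also listed among the other p53 targets.

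**Figure D4:**
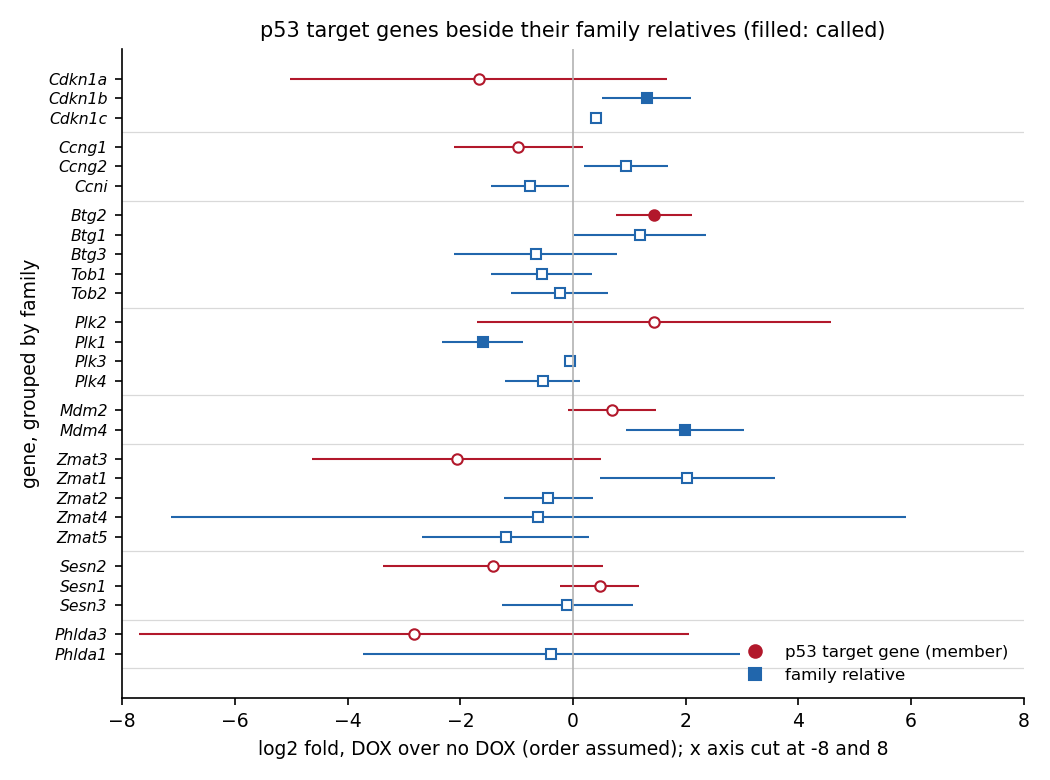
Log2 folds (x axis, DOX over no DOX as read here) of members (circles) and tested family relatives (squares), grouped by family (y axis), with bars for approximate 95% intervals where the unadjusted p was at most 0.9 and filled points for calls. Btg2, Cdkn1b, Mdm4 and Plk1 are the called genes.

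Promoter sequences of the members were searched for the p53 consensus decamer, the unit that p53 binds in tandem pairs. Windows from 250 bases before to 50 bases after annotated starts came from RefSeq (GRCm38.p6), and 8 members matched an entry, with 10 start sites. Zmat3 and Perp have no entry. The decamer reads the same on both strands. It was found in 4 of the 10 windows, those of Cdkn1a, Ccng1, Mdm2 and 1 of the starts of Sesn1, and 8.36% of 32851 windows of this length hold it. The called member Btg2 has none in this window. The stretches below are shown because they mark where these uncalled members and Trp53 carry the decamer, in capitals, 5′ to 3′ on the gene's strand.
Cdkn1a, chr17:29090881-29090962, plus strand: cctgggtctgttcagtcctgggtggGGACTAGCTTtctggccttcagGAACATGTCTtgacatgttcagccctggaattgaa
Mdm2, chr10:117710910-117710969, minus strand: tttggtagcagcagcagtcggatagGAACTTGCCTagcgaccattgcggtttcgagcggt
Ccng1, chr11:40755437-40755496, minus strand: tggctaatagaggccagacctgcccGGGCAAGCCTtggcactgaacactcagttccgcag
Sesn1, chr10:41887241-41887300, plus strand: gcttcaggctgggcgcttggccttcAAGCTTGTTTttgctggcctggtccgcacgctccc
Trp53, chr11:69580259-69580318, plus strand: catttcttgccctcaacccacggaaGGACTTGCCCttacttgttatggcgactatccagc

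The window of Cdkn1a holds the decamer at 2 places with 12 bases between them, starting 73 and 51 bases before the upstream of its 2 annotated starts. Only 24 of 32851 windows (0.0731%) hold a pair at most 13 bases apart. The 10 bases directly after the second decamer of Cdkn1a depart from the consensus at their first base alone. The search took exact matches, so they were not counted and are not in capitals. The letters CATG occur in 3 of the members' 10 windows and in 61.1% of all windows, and TATAAA, read on both strands, in 0 of 10 and in 13.6%. With 1 call among the members, promoter content and fold were not compared. Well known p53 sites of several of these genes lie outside such windows.

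Seed matches to miR-155 were searched because the study withdrew this microRNA. The mature sequence, from RefSeq (GRCm38.p6, chr16:84714143-84714165, plus strand), is shown with its seed (bases 2 to 8) in capitals.
mmu-miR-155-5p: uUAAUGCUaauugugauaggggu
A match was either 7-mer that pairs with the seed, AGCATTA or GCATTAA, on the transcript strand of the longest annotated 3' UTR (GENCODE M21). None of the 10 members has a match, and 13.2% of 11761 tested genes with an annotated 3' UTR have at least 1. Btg2 rose without one. The members' longest transcripts run from 1435 bases for Phlda3 to 7797 for Zmat3, and the 4 tested members with a ratio above 1, from 2743 bases for Btg2 to 3809 for Sesn1, lie within the range of the 5 below it.

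Most tested markers of macrophages, fibroblasts, neutrophils and endothelial cells, which such tumours can hold, had ratios above 1 in the authors' deposited table, and few were called (over all tested entries, 5.72% were called as higher and 5.61% as lower). All 12 macrophage markers had a ratio above 1 in the authors' deposited table, with a median log2 fold of 1.87 and 2 called, Csf1r and Mertk. Of 12 fibroblast markers 11 lay above 1 (median 2.00, 2 called), of 8 tested neutrophil markers 7 did (median of 6 finite values 3.33, 3 called), and of 9 tested endothelial markers 7 did (median 1.67, 1 called, as lower). The labels do not name the tumour cell type. All 12 B lineage markers were tested, with a median log2 fold of 0.49, 4 called as higher and 1 as lower. T cell markers had 0 calls among 8 tested in the authors' DESeq comparison, and 1 higher and 0 lower at an unadjusted p under 0.05. Btg2, Mdm4 and Trp53inp1 are not on any of these marker lists, and the part of these cells in their rises, or in the uncalled values of the other members, was not tested.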

How the data were processed

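RNA from 6 tumour samples was compared, 3 with DOX and 3 without. Per the labels' protocols, tumours were dispersed, red blood cells were lysed, and total RNA was depleted of ribosomal RNA before sequencing. The authors' deposited table holds a linear fold ratio and unadjusted and adjusted p-values per gene. It was made with RSEM and DESeq on build mm9, per the submitters' processing notes, with versions, filters and order of division not given in the sources used here. The adjusted p-values deposited equal a Benjamini-Hochberg adjustment over 18543 entries within 2.09e-06. Ratios were infinite for 2180 tested entries and 0 for 579, and these gave no log2 fold.

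Genes were matched by symbol or, failing that, an older alias. Shares of calls over all tested entries are given as background, with no test of a list. Implied errors assume a normal test, which the authors' tool need not have used, and were computed for p up to 0.9. Functions were tested on simulated data. The members, lists and tests were chosen with earlier results of these data known. All members were named. Of the other lists, called genes and a fixed set of relatives and apoptosis genes were named. Rps27l, Rrm2b, Atm, Atr, Chek1, Chek2, Prkdc, Btg3, Tob1 and Tob2 were added after their values were seen. Also named from outside that fixed set were Tnfrsf10b, Apaf1, Aen, Eda2r, Siva1, Zmat1, Cop1, Trp63, Trp73, Krt10, Krt14 and Dsp. Marker lists covered 7 cell types. Python 3.11.15, pandas 2.3.3 and scipy 1.17.1 were used.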

Additional observations from a re-analysis of the deposited data

How the results depend on the processing

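Alternatives were other thresholds on the adjusted p, Bonferroni adjustment, Benjamini-Hochberg adjustment over finite ratios, and matching by current symbol alone. Of 40 alternative list counts, 31 stayed within 1.5 times of the reported count. Under Bonferroni over all tested genes, 0 members were called as higher (Btg2 at 0.569), as were 0 regulators and 0 family relatives, 0 relatives were called as lower, and 1 regulator, Npm1, stayed lower. Trp53inp1 remained called. At an adjusted p under 0.01 the regulators called as lower went from 5 to 3 (Trp53, Npm1 and Rpl11) and the relatives called as higher from 2 to 1 (Mdm4). At 0.1 the latter were 4, with Ccng2 and Zmat1 added, and 2 other targets were called as lower, Siva1 and Rps27l. These changes follow from how strict each threshold is. The median log2 fold of the members was -1.14 relative to the median of all tested genes, and their mean was -0.55. Of 54 alternative values for single genes, 46 kept direction and call, and the other 8 lost the call under Bonferroni. Among the called genes on these lists, only Trp53inp1 and Npm1 kept their call there. Uncalled genes could not gain a call under Bonferroni, so the 46 do not measure how firm the calls are. No paired analysis was possible because the table holds no value per sample, and leaving out replicates was not run for the same reason. Depth per sample is unknown, so the wide intervals of Cdkn1a, Plk2, Zmat3 and Phlda3 could not be set against their counts.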

Other observations

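Among the 36 other p53 targets, 7 have a miR-155 seed match in the annotated 3' UTR, a split looked at after the values were seen. Of the 6 with a finite ratio in the authors' deposited table, 5 lay above 1 (median log2 fold 0.94), and 9 of the 29 without a match did (median -0.43). Over all tested entries, 44.1% of finite ratios lay below 1, and 13.2% of tested genes with an annotated 3' UTR have a match. Folds by seed match were not computed over all tested genes. The authors' deposited table gives log2 folds of 2.17 for Trp53inp1, 2.66 for Rrm2b, 0.95 for the death receptor gene Tnfrsf10b, 0.93 for Pmaip1, 0.12 for Apaf1, which encodes the apoptosome scaffold, and -1.11 for Aen, while Eda2r has a ratio of 0 and so no log2 fold. Of these 7 genes only Trp53inp1 was called. Their annotated 3' UTRs run from 1845 bases for Tnfrsf10b to 4420 for Trp53inp1. Most of the 29 targets without a match have shorter ones, such as 108 bases for Siva1, though Cop1 has 2802. The part of 3' UTR length in this split was not tested. The other lists did not all split this way: in the authors' deposited table the 2 regulators with a match lay 1 above and 1 below a ratio of 1 (median log2 fold -0.32, against -0.25 for 23 without), and Rpl5, with a match, was called as lower. The 2 family relatives with a match also lay on either side of 1 (median 0.29, against -0.31 for 16 without) in the authors' deposited table. The sites of 3 of these genes, each with all 8 bases of the extended match in capitals, start at base 470 of 4420 (Trp53inp1), 684 of 1845 (Tnfrsf10b) and 1307 of 2139 (Apaf1) of the longest 3' UTR (GENCODE M21).
Trp53inp1: cactaacacaAGCATTAAcaggtgattt
Tnfrsf10b: acacagagggAGCATTAAgtgctacctg
Apaf1: aatgggtctcAGCATTAAcagttgacag

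Perp encodes a desmosome protein of stratified epithelium. Of 10 keratinocyte markers 5 were tested in the authors' deposited table. Of these 5, 2 had an infinite ratio, Krt14 and Dsp, which is on the higher side, and neither was called. In the authors' deposited table the envoplakin gene Evpl alone was called, as lower (log2 fold -2.70, adjusted p = 0.0291). Over all tested entries, 5.61% were called as lower. Krt10, at -0.15, and Trp63, at -4.72 (adjusted p = 0.793), were not called in the authors' deposited table. Perp has no ratio to set beside these values.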
